A study of Mus musculus with 6 samples.

Results

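Granins are the soluble cargo proteins of dense-core vesicles, and 7 granin and granin-like genes are described here in mouse stellate ganglia: Chga, Chgb, Scg2, Scg3, Scg5, Vgf and Pcsk1n. They were taken as every probe set that the platform annotation assigns to exactly 1 of these symbols, which gave 1 probe set for each gene, 7 of the 18193 genes with such a probe set. All 7 lay past the floor on dim values, a mean log2 intensity of at least 4 over the 6 arrays, which 9955 genes passed. The stellate ganglia supply sympathetic fibres to the heart, and the study asked which of their transcripts differ after lasting pressure overload. Male mice of the C57/Bl6 strain had transverse aortic constriction (TAC, a banding that makes the left ventricle pump against a higher pressure; 3 arrays) or a sham operation (3 arrays), and their ganglia were taken 8 weeks later. No allele or drug is named in the labels, and the age of the mice is not given in the sources used here. Both ganglia of 1 animal went onto 1 array, so each array is a whole ganglion pair with its neurons, glia, vessels and connective tissue. The arrays carry the letters A, B and C within each group.

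Granins are acidic proteins that aggregate with calcium in the trans-Golgi network and travel with neuropeptides and catecholamines into dense-core vesicles, from which they are released on stimulation. Most are also precursors, cut by prohormone convertases into smaller peptides. In sympathetic neurons and adrenal chromaffin cells they share their vesicles with noradrenaline, neuropeptide Y and ATP. Scg5 and Pcsk1n differ from the rest in that their products bind the convertases themselves.

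The sequence before the start of a granin gene is where cyclic AMP and neuronal activity are known to act on several members, through the cyclic AMP response element TGACGTCA and its core TGACG. The windows of Chgb and Scg2 are shown because they hold the whole element, that of Chga because it holds the core with a different end, and that of Pcsk1n because it holds neither. Each is the 100 bases just before the transcription start, on the coding strand, from RefSeq on build GRCm38.p6. Capitals mark the element or its core. The Chgb window is chr2:132781542-132781641, on the plus strand, and that of Scg2 is chr1:79440027-79440126, on the minus strand. The Chga window is chr12:102554841-102554940 and that of Pcsk1n is chrX:7919722-7919821, both on the plus strand.
Chgb: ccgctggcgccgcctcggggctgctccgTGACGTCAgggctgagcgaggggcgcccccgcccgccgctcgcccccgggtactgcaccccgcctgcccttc
Scg2: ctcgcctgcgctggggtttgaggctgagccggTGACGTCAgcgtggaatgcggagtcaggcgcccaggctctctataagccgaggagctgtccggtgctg
Chga: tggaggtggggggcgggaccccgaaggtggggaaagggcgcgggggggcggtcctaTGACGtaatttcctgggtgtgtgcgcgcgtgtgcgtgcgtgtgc
Pcsk1n: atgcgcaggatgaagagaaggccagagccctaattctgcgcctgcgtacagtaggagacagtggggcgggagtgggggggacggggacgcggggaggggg
The element began 72 bases before the start of Chgb and 68 bases before that of Scg2. Of the 32851 promoters in the table, 1.55% held TGACGTCA in the 250 bases before the start, counting both strands, on which this palindrome reads the same. The table held 6 of the 7 members, and 2 of them had the whole element. The member not in the table was Vgf, so its promoter was not examined. The core TGACG, of which each whole element contains a copy on both strands, was in 17.8% of all promoters and in 5 of the 6 members. It began 44 bases before the start in Chga, 30 in Scg3 and 175 in Scg5. These are matches of letters, and no binding was measured.

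Of the 7 granin transcripts, Vgf, Chgb and Scg5 were higher on every TAC array than on every sham array, 0 passed the adjusted threshold, and the other 4 had overlapping groups. Vgf had the largest mean difference, 1.76-fold, followed by Chgb at 1.38-fold, Scg5 at 1.36-fold and Scg2 at 1.24-fold. Scg3 was at 1.13-fold, Chga at 1.11-fold and Pcsk1n at 0.96-fold. The mean was higher in 6 of the 7 after TAC, as in 56.1% of all tested probe sets. The median log2 difference of the 7 was 0.31, and 0.16 without TAC B, against 0.03 over all tested probe sets. Limma, fitted on all 17550 tested probe sets, called 0 of the 7 at an adjusted p under 0.05, where it called 0% of all probe sets in either direction. At an unadjusted p under 0.05, 3 members were higher and 0 were lower, where 6.03% of all probe sets were higher and 3.05% lower. The same 3 members, Chgb, Scg5 and Vgf, had every TAC array above every sham array, which held for 9.02% of all probe sets. In whole ganglia, a change in the number of cells of a type and a change in RNA per cell cannot be told apart.

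**Figure D1:**
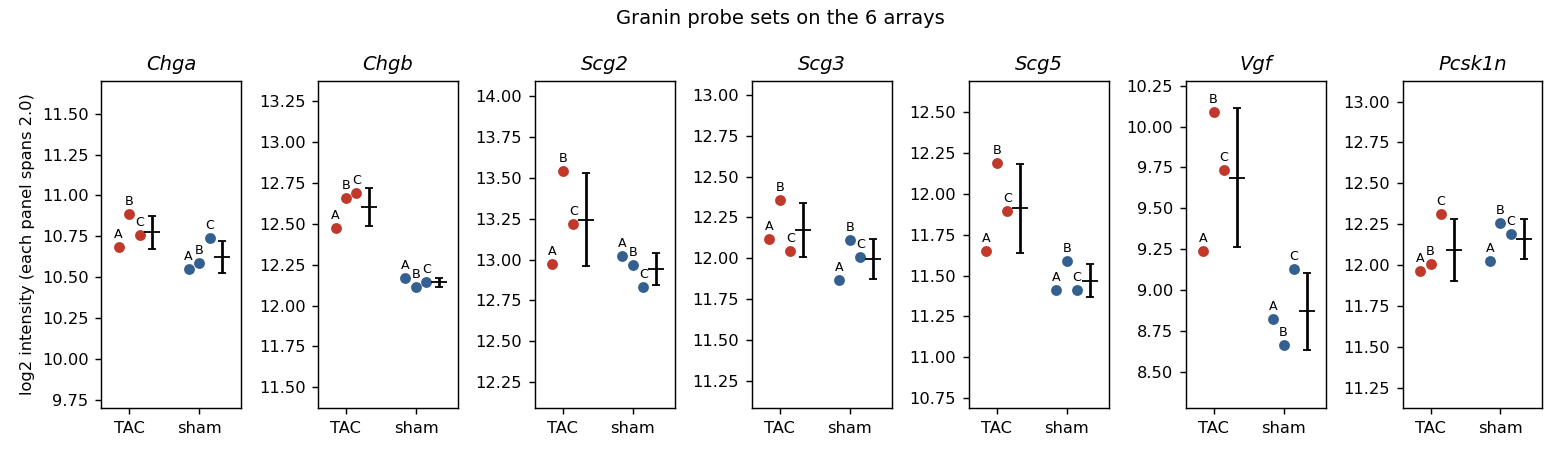
Log2 intensity of the probe set of each granin gene on the 6 arrays, TAC to the left of sham, with the array letter at each point and the group mean with its SD (n = 3) beside the points. Every panel spans the same log2 range around its own centre. The TAC and sham points are separate for Chgb, Scg5 and Vgf and overlap for the other 4 genes.

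Among the chromogranins, the classical members named for chromaffin granules, the groups were separate for Chgb and overlapped for Chga. Chgb, chromogranin B (probe set 1415885_at), measured 12.47, 12.66 and 12.69 on the log2 scale on TAC arrays A, B and C, against 12.17, 12.11 and 12.15 on sham arrays A, B and C. All TAC values lay above all sham values, with a gap of 0.31 between the lowest TAC and the highest sham array. The group means were 12.61 ± 0.12 in TAC and 12.14 ± 0.03 in sham ganglia (SD, n = 3 each). The log2 difference was 0.46 (SE 0.09, 95% interval 0.26 to 0.67), ranked 39 of the 17550 probe sets by p, and limma gave an adjusted p of 0.512. The sham arrays spanned only 0.05, against 0.22 for the TAC arrays. On the linear scale these are 5682, 6455 and 6600 intensity units after TAC, against 4594, 4431 and 4534 after sham.

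Chga, chromogranin A, the precursor of vasostatin and catestatin and the most used marker of neuroendocrine cells (1418149_at), measured 10.68, 10.88 and 10.76 on TAC arrays A, B and C, against 10.55, 10.58 and 10.74 on sham arrays A, B and C. The groups overlapped, since sham C lay above TAC A. The log2 difference was 0.15 (SE 0.09, 95% interval -0.07 to 0.37), with a limma adjusted p of 0.619, so the interval holds both no difference and a fold of up to 1.30. The difference was 0.09 without TAC B, 0.09 with array weights, 0.20 without TAC A and 0.21 without sham C. Set against Chga on the same array, Chgb was higher after TAC by 0.31 on the log2 scale, or 1.24-fold. Relative to the sham mean of that ratio, the TAC arrays A, B and C stood at 0.27, 0.25 and 0.42, against 0.10, 0.01 and -0.11 for sham arrays A, B and C. No TAC array overlapped a sham array in this ratio, and the exact two-sided permutation test gave p = 0.1, the smallest value that 3 arrays against 3 allow (adjusted p = 0.1 over the 2 within-array comparisons made).

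The secretogranins Scg2 and Scg3 were higher on average after TAC with overlapping groups. Scg2, secretogranin II, the precursor of secretoneurin (1450708_at), measured 12.97, 13.54 and 13.22 on TAC arrays A, B and C, against 13.02, 12.97 and 12.83 on sham arrays A, B and C. TAC B and C lay above all sham arrays, while TAC A lay within the sham range. Its log2 difference was 0.31 (SE 0.15, 95% interval -0.06 to 0.68; limma adjusted p = 0.567). Without TAC B the difference was 0.16, without TAC A 0.44, and without both sham C and TAC B it was 0.10.

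Scg3, secretogranin III, which binds chromogranin A and cholesterol-rich vesicle membrane and so anchors the granin aggregate there (1448628_at), measured 12.12, 12.36 and 12.04 on TAC arrays A, B and C, against 11.87, 12.11 and 12.01 on sham arrays A, B and C. Sham B lay above TAC C, so the groups overlapped, though TAC A and B exceeded every sham array. The log2 difference was 0.18 (SE 0.11, 95% interval -0.10 to 0.45; limma adjusted p = 0.632). It was 0.08 without TAC B, 0.11 without sham A, 0.23 without sham B and 0.24 without TAC C.

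Vgf, a nerve growth factor-inducible precursor of several secreted peptides (1436094_at), had the largest mean difference and the largest spread between animals of the 7 genes. It measured 9.24, 10.09 and 9.73 on TAC arrays A, B and C, against 8.82, 8.66 and 9.13 on sham arrays A, B and C. The groups did not overlap, but TAC A exceeded sham C by only 0.11. The means were 9.69 ± 0.43 in TAC and 8.87 ± 0.24 in sham ganglia (SD, n = 3 each), or 848 and 472 units as means of the linear intensity. The log2 difference was 0.82 (SE 0.23), and its 95% interval of 0.26 to 1.38 corresponds to 1.20-fold to 2.60-fold. Limma gave an unadjusted p of 0.0113 and an adjusted p of 0.516. With 1 array left out in turn the difference lay between 0.62, without TAC B, and 1.04, without TAC A.

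Scg5 and Pcsk1n are the convertase partners, and only the groups of Scg5 were separate. Scg5 (1423150_at) encodes 7B2, a chaperone that the convertase encoded by Pcsk2 needs to mature. It measured 11.65, 12.19 and 11.90 on TAC arrays A, B and C, against 11.41, 11.59 and 11.41 on sham arrays A, B and C. The groups did not overlap, with TAC A 0.06 above sham B. The log2 difference was 0.44 (SE 0.15, 95% interval 0.09 to 0.80), with an unadjusted p of 0.0224 and an adjusted p of 0.542 from limma. The unadjusted p was 0.0536 without TAC C, 0.0677 without sham A, 0.0661 without sham C and 0.110 without both sham C and TAC B. The difference was 0.30 without TAC B and 0.27 without both sham C and TAC B. Pcsk2 had no probe set of 1 symbol in the annotation table, so the planned comparison of Scg5 with it was not made.

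Pcsk1n (1416965_at) encodes proSAAS, an inhibitor of the convertase encoded by Pcsk1. Pcsk1n measured 11.96, 12.01 and 12.31 on TAC arrays A, B and C, against 12.02, 12.26 and 12.19 on sham arrays A, B and C. The groups overlapped throughout: TAC C was the highest of all 6 arrays and TAC A and B were the lowest. The log2 difference was -0.07 (SE 0.12, 95% interval -0.36 to 0.23; limma adjusted p = 0.865), so its direction is not settled. The difference was 0.01 with array weights, -0.17 without TAC C, -0.13 without sham A and -0.00079 without TAC A. It was -0.02 without TAC B, -0.02 without sham B and -0.0050 without both sham C and TAC B. Pcsk1 measured 8.82, 9.61 and 8.84 on TAC arrays A, B and C, against 8.24, 8.44 and 8.17 on sham arrays A, B and C, so that every TAC array lay above every sham array. The within-array log2 difference of Pcsk1n over Pcsk1 shifted by -0.88 after TAC (exact two-sided permutation p = 0.1, adjusted p = 0.1). That p is the smallest that 3 arrays against 3 allow. Most of the shift is the log2 difference of Pcsk1 itself, 0.81, against -0.07 for Pcsk1n. Relative to the sham mean of the ratio, TAC arrays A, B and C stood at -0.74, -1.48 and -0.41, against -0.09, -0.06 and 0.14 for sham arrays A, B and C. Without TAC B the shift was -0.57, and without both sham C and TAC B it was -0.50.

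**Figure D2:**
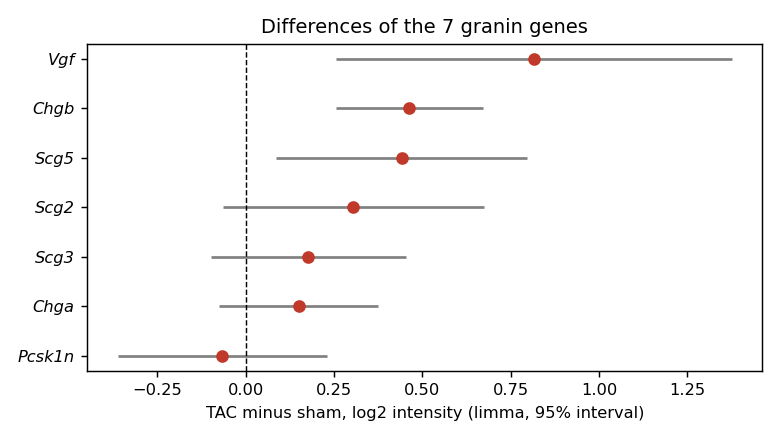
TAC minus sham log2 difference of each granin gene (points) with limma's 95% interval (lines), ordered from the highest at the top. The intervals of Vgf, Chgb and Scg5 lie above 0 and those of Scg2, Scg3, Chga and Pcsk1n cross it; these intervals are not adjusted for the number of probe sets tested.

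The TAC animals differed among themselves in a way that most granins shared. On TAC B, 5 of the 7 members reached their highest TAC value, as did 40.1% of all tested probe sets, and Chgb and Pcsk1n were highest on TAC C. On TAC A, 6 of the 7 had their lowest TAC value, as did 34.6% of all tested probe sets, the exception being Scg3. Expressed as the deviation from the sham mean, the median of the 7 was 0.12 on TAC A, 0.51 on TAC B and 0.28 on TAC C, against -0.06, 0.03 and 0.01 on sham arrays A, B and C. The SD was larger over TAC than over sham arrays for all 7 members, and for 50.5% of all tested probe sets. Without both sham C and TAC B the median log2 difference of the 7 was 0.15. Without TAC A, 5 members had every remaining TAC array above every sham array, where 17.1% of all probe sets did, with Scg2 and Chga joining Chgb, Scg5 and Vgf.

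**Figure D3:**
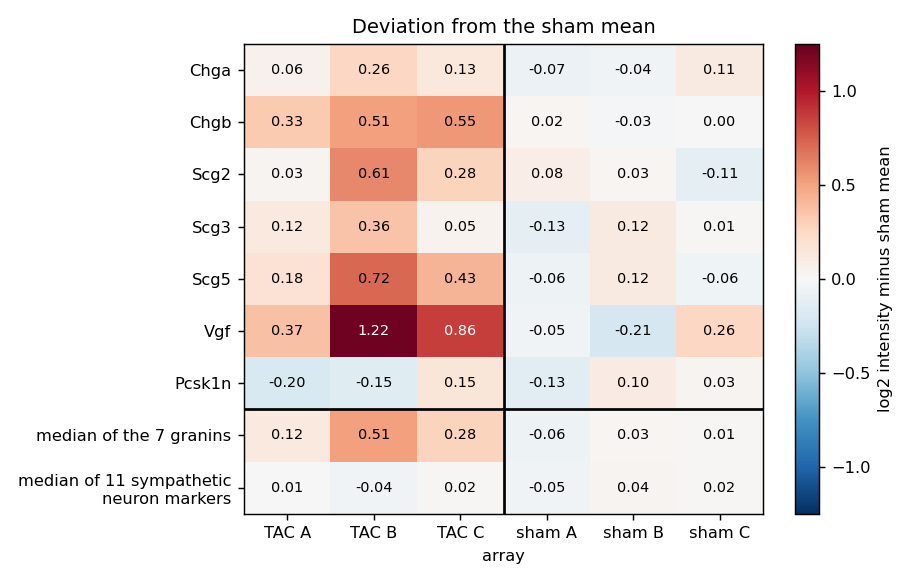
Deviation of each granin gene from its sham mean on every array, in log2 units (colour and printed value), with TAC arrays to the left of sham arrays. The bottom rows give the median of the 7 granins, which is 0.51 on TAC B, and the median of 11 sympathetic neuron markers, which is -0.04 there.

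Over the 6 arrays, the 15 pairs among the members other than Pcsk1n correlated at 0.57 to 0.94, with a median of 0.80. The closest pair was Scg2 and Scg5 at 0.94, followed by Chga and Vgf at 0.93. These values include the difference between the groups. As deviations from the group means, the same 15 pairs lay between -0.01, for Chgb and Scg3, and 0.91, for Scg2 and Scg5, with a median of 0.62. The 6 pairs with Pcsk1n lay between -0.22 and -0.08 over the 6 arrays, and between -0.09 and 0.46 as deviations from the group means, with a median of 0.12 and Chgb the highest. Both genes of a pair were read from the same RNA on the same array, so these correlations describe 6 arrays only. They are given without a value for pairs of other genes, so they do not mark the granins as closer than other genes.

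The genes whose profile over the 6 arrays was most like that of each granin were taken by Pearson correlation. For Chgb the closest was Atp6ap2, an accessory subunit of the vacuolar proton pump, at 0.996, with a log2 difference of 0.45, followed by Abhd16a at 0.993 and Dcaf1 at 0.991. For Scg2 they were Srp9, a signal recognition particle subunit, at 0.999, B630019K06Rik at 0.994 and Mtdh at 0.994. Scg5 was closest to Uap1 at 0.997, Mtch2 at 0.996 and Bex2 at 0.993. Vgf was closest to Atg13, Rab2b and Hspb6, each at 0.989. Hspb6 had a mean log2 of 4.21 over all arrays and a log2 difference of 1.30. Its sham mean thus lay under the floor of 4, and it passed the floor only through the TAC arrays. Chga was closest to Kat5 at 0.990, Anapc16 at 0.987 and Sumo3 at 0.986, and Scg3 to Eif2ak3 at 0.992, Mrpl39 at 0.985 and Utp3 at 0.983. Pcsk1n was closest to Snupn at 0.992, Ttc9b at 0.978 and Rad23b at 0.974. The genes named were not alone in correlating highly over these 6 arrays. Counting them, 187 probe sets of other genes exceeded 0.95 with Scg2, 157 with Scg5, 81 with Chgb and 9 with Pcsk1n.

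The other genes of the dense-core vesicle pathway were counted from lists. Of 8 measured enzymes of prohormone processing, 2 were higher and 0 lower at an unadjusted p under 0.05, where 6.03% of all probe sets were higher and 3.05% lower, and the median log2 difference was 0.22. They were Pcsk1, a prohormone convertase, at 0.81 (SE 0.22) and Qpct, which forms the pyroglutamate end of some peptides, at 0.56 (SE 0.16). Cpd, a carboxypeptidase, was next at 0.53 (SE 0.22). The count was 4 without sham A, where 7.13% of all probe sets were higher, 4 with a trended, robust variance model (6.28%), and 1 without both sham C and TAC B (3.21%). Of 29 measured genes of vesicle formation and exocytosis, 7 were higher and 0 lower at that p, against the same shares of all probe sets, with a median of 0.07. The leading ones were Slc18a1, a vesicular monoamine transporter, at 0.50 (SE 0.10), Ptprn, a receptor-like protein of the dense-core vesicle membrane, at 0.41 (SE 0.09), and the calcium sensor Syt5 at 0.35 (SE 0.12). The brighter vesicular monoamine transporter Slc18a2, which measured 12.59 to 13.12 over the arrays, was at 0.29 (SE 0.11). The count of 7 was 2 without TAC B, without TAC C or without sham B, 3 without sham A, 4 without sham C and 3 without both sham C and TAC B, where 3.21% to 7.13% of all probe sets were higher. It was 4 after quantile normalization (4.52%) and 3 in the fit blocked on title letter (5.47%).

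Ptprn measured 9.53, 9.77 and 9.69 on TAC arrays A, B and C, against 9.19, 9.27 and 9.30 on sham arrays A, B and C. The groups did not overlap, and limma gave an adjusted p of 0.512. Its paralogue Ptprn2 was at -0.14 (SE 0.09), with overlapping groups. Among 7 measured peptide cargo genes, leaving out Sst, 4 were higher and 0 lower at an unadjusted p under 0.05, where 6.03% of all probe sets were higher, with a median log2 difference of 0.57. Cartpt (CART peptides) was at 1.89 (SE 0.16) and Npy (neuropeptide Y) at 0.77 (SE 0.11). Sst (somatostatin) measured 6.45 ± 0.52 in TAC ganglia (SD, n = 3) and 3.52 to 3.60 on the sham arrays, all under the floor of 4, so it passed the floor only through the TAC arrays and is given as at least 5.46-fold higher, with sham set at the floor. A further 12 cargo genes were dim.

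Genes listed as activity-regulated, as Vgf and Scg2 are known to be, did not share one direction. The list also holds Creb1, Crtc1, Crtc2 and Crtc3, which act through the cyclic AMP response element. Of 16 measured, 3 were higher and 2, Egr1 and Creb1, were lower at an unadjusted p under 0.05, where 6.03% and 3.05% of all probe sets were. The median log2 difference was 0.01, and a further 8 genes were dim by their mean over the arrays. Of these, Egr3 measured 3.15, 3.07 and 3.09 on TAC arrays A, B and C, against 5.74, 4.92 and 3.18 on sham arrays A, B and C. It lay above the floor of 4 on sham A and B only and was not tested. Egr1, an immediate-early transcription factor, had the smallest p, at -1.37 (SE 0.27). Pcsk1, also counted among the processing enzymes, at 0.81 (SE 0.22) and the phosphatase gene Dusp1 at 0.60 (SE 0.17) were the next by p. Limma called 0 tested genes of these 4 lists at an adjusted p under 0.05.

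**Figure D4:**
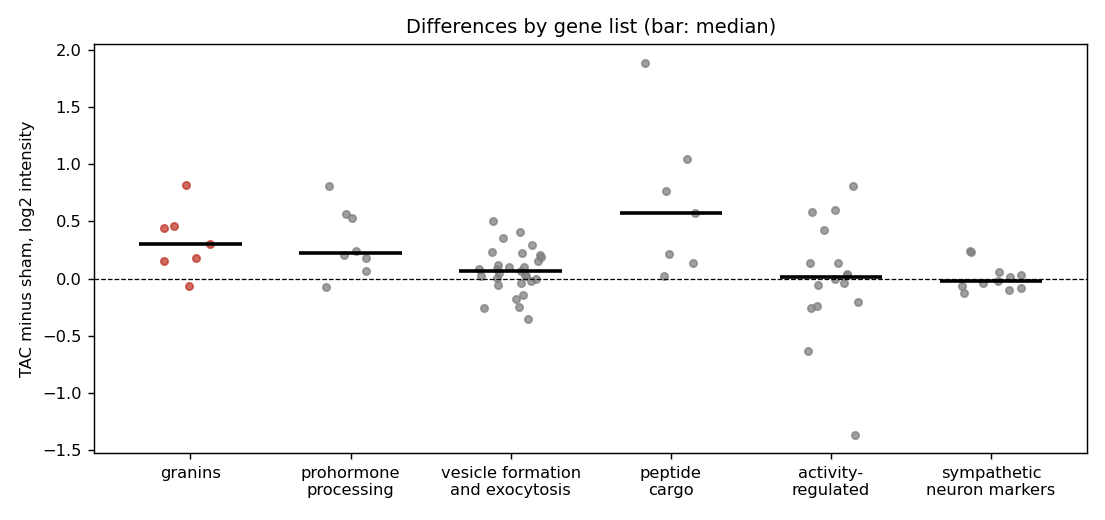
TAC minus sham log2 difference of every measured gene in the granin set (red) and in 5 other gene lists (grey), with a bar at the median of each. The medians are 0.31 for the granins, 0.22 for prohormone processing, 0.07 for vesicle formation and exocytosis, 0.57 for peptide cargo (without Sst, dim on the sham arrays), 0.01 for activity-regulated genes and -0.02 for sympathetic neuron markers.

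Markers of the cells in the ganglion were read beside the granins. The ganglion's own neurons were evident on every array, with the noradrenaline enzymes Th and Dbh above 13 on the log2 scale. The summed linear intensity of 11 sympathetic neuron markers was 101686 to 104157 on TAC arrays, against 97400 to 108706 on sham arrays. Their median log2 difference was -0.02. At an unadjusted p under 0.05, 2 were higher, Th and Chrna3, and 0 were lower. Of all probe sets, 6.03% were higher and 3.05% lower at that p. The summed intensity of 4 satellite glia and Schwann cell markers was 15401, 9959 and 15101 on TAC arrays A, B and C, against 18760, 16593 and 15741 on sham arrays A, B and C. This sum is mostly Fabp7, which measured 13.76, 13.11 and 13.73 on TAC arrays A, B and C, against 14.08, 13.89 and 13.80 on sham arrays A, B and C, while S100b, Kcnj10 and Sox10 overlapped between the groups. The median deviation of the 4 glial markers from the sham mean was 0.03, -0.64 and 0.01 on TAC arrays A, B and C, so the list as a whole was low on TAC B, where the granin median was highest. The part of glia in the granin differences was not tested.

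Pericyte and smooth muscle markers summed to 1965 to 2782 on TAC arrays, against 1818 to 1902 on sham arrays, mostly through Rgs5. Acta2 and Pdgfrb overlapped between the groups, and the median deviation of the 3 measured markers was 0.09, 0.70 and 0.21 on TAC arrays A, B and C. Fibroblast markers had a median deviation of 0.25, -0.54 and -0.42 on TAC arrays A, B and C, against 0.05, -0.01 and 0.01 on sham arrays A, B and C. Of the 5, Dcn was higher at 0.26 and Col1a1 lower at -0.60 at an unadjusted p under 0.05. Of all probe sets, 6.03% were higher and 3.05% lower at that p. The part of pericytes, smooth muscle and fibroblasts in the granin differences was not tested.

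Adrenal chromaffin cells also make granins. Of their 2 markers, the adrenaline enzyme Pnmt measured 5.95 to 6.01 on TAC arrays, against 5.85 to 6.05 on sham arrays, and Slc18a1 measured 6.87 to 7.19 on TAC arrays, against 6.47 to 6.57 on sham arrays. Their summed intensity was 181 to 211 on TAC arrays, against 147 to 161 on sham arrays, and its part in the granin differences was not tested. Brown fat transcripts were uneven, with Ucp1 at 6.82 on TAC B and 8.53 on sham C, against at most 4.64 on the other 4 arrays. Ppargc1a of the same list measured 6.08 to 6.37 on all arrays. The white fat markers Fabp4 and Adipoq were also highest on TAC B and sham C. Fabp4 was at 12.03 and 12.63 there, against at most 10.75 on the other 4 arrays. Without both sham C and TAC B, a comparison added after the data had been seen, Chgb was at 0.44 and Vgf at 0.74. Both kept an unadjusted p under 0.05, which 3.21% of all probe sets did in that direction. Scg5 was then at 0.27, Chga at 0.15, Scg2 at 0.10, Scg3 at 0.09 and Pcsk1n at -0.0050. None of these had an unadjusted p under 0.05. The part of fat in the granin differences was not tested. Skeletal muscle markers summed to 243, 83.4 and 79.8 on TAC arrays A, B and C, against 639, 65.5 and 1222 on sham arrays A, B and C. The part of muscle in the granin differences was not tested either. The correlation between any pair of arrays over all tested probe sets was 0.980 to 0.994, and TAC B had the lowest mean correlation with the others, 0.984.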

How the data were processed

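Stellate ganglia of 3 TAC and 3 sham mice were measured on 1 Affymetrix GeneChip Mouse Genome array each. The deposited values are linear probe set intensity values for which the submitters' processing notes name GCRMA, with version and settings not given in the sources used here. GCRMA normalizes between arrays and compresses dim values, and it gives no detection call. The number of arrays limits the precision.

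Here the 45101 rows were log2-transformed with no pseudocount. The 64 control rows and 27487 probe sets with a mean log2 under 4 were left out, and 17550 were tested. Genes were named from GEO's platform annotation, and a listed gene was represented by its brightest probe set. Limma 3.58.1 in R 4.3.3 compared the groups (lmFit, eBayes, two-sided, Benjamini-Hochberg over all tested probe sets, threshold 0.05), and the procedure was tested on simulated data. The within-array differences used an exact permutation test. The most identical values any pair of arrays shared was 8. Named genes were all 7 members, the 3 genes of smallest p in each list, and the 3 genes most correlated with each member. Ptprn2, Slc18a2, Creb1, Crtc1, Crtc2, Crtc3 and the cell markers were named after their values were seen. Members and lists were chosen with earlier results of these data known. Same-letter arrays did not deviate together (correlations 0.08, -0.0031 and -0.17 for A, B and C), so the letters were not used as pairs. Alternatives covered the floor, variance model, weights, normalization, probe set summary, a block by letter, and arrays left out. Figures used matplotlib 3.10.9.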

Additional observations from a re-analysis of the deposited data

How the results depend on the processing

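Limma called 0 of the 7 granin genes under each of the 14 alternatives. Over these, Chgb and Vgf had an unadjusted p under 0.05 in 14 of 14, Scg5 in 10 and Scg2 in 1, without TAC A. In these alternatives 2.76% to 8.76% of all probe sets were higher at that p. The count of members higher at that p was 3 with the title letter as a replicate block (5.47% of all probe sets). It was also 3 without the block (6.03%), and the block changed no call. Adjusted p ranged from 0.238 to 0.824 for Chgb, Vgf and Scg5. The median log2 difference of the members lay between 0.16 (without TAC B) and 0.44 (without TAC A) with 1 array left out, and was 0.15 without both sham C and TAC B, a comparison added after the data had been seen. Members with every TAC array above every sham array numbered 3 to 5 with 1 array left out, which makes separation easier: the share of all probe sets was then 12.4% to 17.4%, against 9.02% with all arrays. Pcsk1n was at 0.0102 with array weights, against -0.07 with equal weights. The vesicle formation and exocytosis count was 3 with the block, against 7 without it. Each member has a single probe set, so averaging probe sets left its value as it was. Neither the cause of these changes nor a protein-level difference was tested. GCRMA gives no measure of signal over background, and values of dim genes are the least certain.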
